A study of Mus musculus with 6 samples.

Results

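The 10 beta-cell transcription factors described here are Pdx1, Mafa, Nkx6-1, Nkx2-2, Neurod1, Isl1, Pax6, Foxa2, Rfx6 and Insm1. They were chosen by name, as genes for nuclear regulators of insulin-producing cells, and found on the array through the RefSeq accession of each probe. All 10 were among the 19021 genes tested, through 14 probes. The 6 Agilent 1-colour arrays measured mRNA of mouse pancreatic islets, 2 arrays for each of 3 genotypes. TrspFF islets carried floxed Trsp alleles on both chromosomes and no Cre. Trsp-RIPKO islets carried the same floxed alleles and RIP-Cre, in which the rat insulin promoter drives Cre, and Trsp-Ins1KO islets carried them with Ins1-Cre. Per the labels all mice were male, 16 weeks old and on an ICR background. Trsp encodes the transfer RNA for selenocysteine, and the design text ties its loss to oxidative stress. No group with Cre and unfloxed Trsp was analysed here, so an effect of Cre and an effect of Trsp loss cannot be told apart. Whether each array stands for an animal of its own is not in the labels, and the p-values therefore reflect the spread between these arrays alone, which may be technical.

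Beta cells keep their identity through a small network of DNA-binding proteins that bind the insulin gene and each other's regulatory regions. Pdx1 and Mafa bind the insulin promoter directly, Nkx6-1 and Nkx2-2 hold back genes of other islet cell types, and Neurod1 is a basic helix-loop-helix activator of insulin. Isl1 and Pax6 act across endocrine cell types, Foxa2 opens chromatin for other factors, Rfx6 is needed for islet development and for beta-cell function, and Insm1 is a zinc-finger repressor of endocrine cells. Nuclear Pdx1 and Mafa are known to be lost from beta cells under oxidative stress.

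Promoter sequence bears on these genes because the factors bind one another's promoters and enhancers. RefSeq promoters (GRCm38.p6, 250 bases before to 50 bases after a gene's start) were matched for 8 of the 10 factors, with 11 promoters in all. The 4 shown belong to factors that differed between groups in the results below, and they illustrate how unlike these promoters are. They lie at chr5:147269847-147270146 (plus strand), chr5:101664662-101664961 (minus strand), chr2:147186353-147186652 (minus strand) and chr2:105668646-105668945 (plus strand, the first of 2 Pax6 promoters). Capitals mark each E-box (CANNTG, the site type of Neurod1 and its partners) and each homeodomain core (TAAT on either strand, the site type of Pdx1, Nkx6-1, Isl1 and Pax6), with touching or overlapping matches merged into 1 run.
Pdx1: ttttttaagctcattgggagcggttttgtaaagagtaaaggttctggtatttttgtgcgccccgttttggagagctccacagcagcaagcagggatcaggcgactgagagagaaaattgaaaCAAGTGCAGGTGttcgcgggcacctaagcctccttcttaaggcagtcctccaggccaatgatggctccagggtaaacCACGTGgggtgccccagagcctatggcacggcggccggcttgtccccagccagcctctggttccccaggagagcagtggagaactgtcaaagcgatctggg
Nkx6-1: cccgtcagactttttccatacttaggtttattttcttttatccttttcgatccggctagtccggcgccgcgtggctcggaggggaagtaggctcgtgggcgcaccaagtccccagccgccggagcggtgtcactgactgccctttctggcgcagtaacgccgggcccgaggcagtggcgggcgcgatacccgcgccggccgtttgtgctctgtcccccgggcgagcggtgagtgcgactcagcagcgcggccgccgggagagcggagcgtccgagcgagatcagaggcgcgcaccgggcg
Nkx2-2: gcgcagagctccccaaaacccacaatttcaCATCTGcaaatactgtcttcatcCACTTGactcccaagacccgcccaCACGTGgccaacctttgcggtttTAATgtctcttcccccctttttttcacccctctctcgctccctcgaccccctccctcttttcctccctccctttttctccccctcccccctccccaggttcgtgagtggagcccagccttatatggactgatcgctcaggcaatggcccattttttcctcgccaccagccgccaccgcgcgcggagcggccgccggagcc
Pax6: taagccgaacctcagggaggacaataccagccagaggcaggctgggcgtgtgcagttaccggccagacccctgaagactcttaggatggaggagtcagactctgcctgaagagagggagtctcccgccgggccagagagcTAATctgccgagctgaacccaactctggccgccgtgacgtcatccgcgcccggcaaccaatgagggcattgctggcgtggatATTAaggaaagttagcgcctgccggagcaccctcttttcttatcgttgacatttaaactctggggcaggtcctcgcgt
The Pdx1 promoter held 3 E-boxes and 0 homeodomain cores. Nkx2-2 held 3 E-boxes and 1 core, Pax6 held 0 and 2, and Nkx6-1 held 0 of each. The remaining promoters were also mixed, since Rfx6 held 1 E-box and 5 cores while Neurod1 held 1 E-box and 0 cores. Among 32851 RefSeq promoters of 300 bases, 72.3% held an E-box and 58% a TAAT core, so these matches were common everywhere. A MAF half-site (TGCTGA, on either strand; 19.5% of all promoters) was found 1 time in Nkx6-1, 2 times in Neurod1 and 1 time in the second of 3 Foxa2 promoters. The antioxidant response element (TGACNNNGC, on either strand; 12.4% of all promoters) was found 1 time in Nkx6-1, Isl1 and Rfx6 and 3 times in the second Pax6 promoter. A forkhead site (TGTTTNC, on either strand; 20.5% of all promoters) had 0 matches in any of the 11 promoters. These are letter matches and were not tested as binding sites.

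Several facts about the arrays touch every result. A second file deposited by the authors holds their processed values, and its columns named TrspFF and Trsp-Ins1KO matched each other's scanner files. Groups here follow the scanner files' labels, and under the table's own names every difference of Trsp-Ins1KO from TrspFF has the opposite sign. Trsp itself was not analysed here. As a check of labels chosen after its values were seen, the selenoprotein gene Gpx4 stood at 4.38 and 4.30 for TrspFF, at 3.57 and 3.53 for Trsp-RIPKO and at 3.52 and 3.39 for Trsp-Ins1KO, and Selenoh was likewise lower on the 4 arrays filed as knockouts. Trsp-RIPKO arrays sat alone on slide 2 and carried the scanner software's evaluate flag, so slide and genotype cannot be told apart for them, whereas TrspFF and Trsp-Ins1KO shared slide 1. Xist was present in TrspFF and Trsp-RIPKO islets despite the male label, was not well above background on the Trsp-Ins1KO arrays, and the Y-linked genes Ddx3y and Eif2s3y were present on all 6 arrays. In Trsp-RIPKO, Ddx3y fell by 1.36 and Eif2s3y by 1.13 against TrspFF. Whether RNA of both sexes was pooled is not in the labels, and the part of sex in the results was not tested. The islet hormone genes Ins1, Ins2, Gcg, Sst and Ppy were well above background on all 6 arrays.

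Values are log2 intensity above the array's 75th percentile, and differences between groups are log2 differences of these values tested with limma over all genes. A gene passed at an adjusted p under 0.05, and "rose" or "fell" is used only of genes that passed. In Trsp-Ins1KO islets 6 of the 10 factors rose and 0 fell against TrspFF, where 45.9% of all genes passed (23% rose and 23% fell). The 6 were Mafa, Pdx1, Nkx2-2, Pax6, Nkx6-1 and Insm1, with differences between 0.36 and 0.68, though Nkx2-2 rests on 1 of its 2 probes. In Trsp-RIPKO islets only Nkx6-1 passed, and it fell, against a background of 36.4% of genes that passed (18.9% rose and 17.5% fell). Between the knockouts 6 factors were higher in Trsp-Ins1KO and 0 were lower, where 38.7% of all genes passed (19.3% higher and 19.4% lower). Of these 6, Nkx2-2 and Neurod1 have second probes that passed in the opposite direction. The median difference of the 10 factors was -0.01 in Trsp-RIPKO and 0.37 in Trsp-Ins1KO against TrspFF, while the medians of all genes were 0.00 and -0.01. With dim probes kept (32494 genes tested), the medians of all genes were 0.07 and 0.28, and those of the factors stayed at -0.01 and 0.37. The 2 comparisons with TrspFF share the same control arrays.

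**Figure D1:**
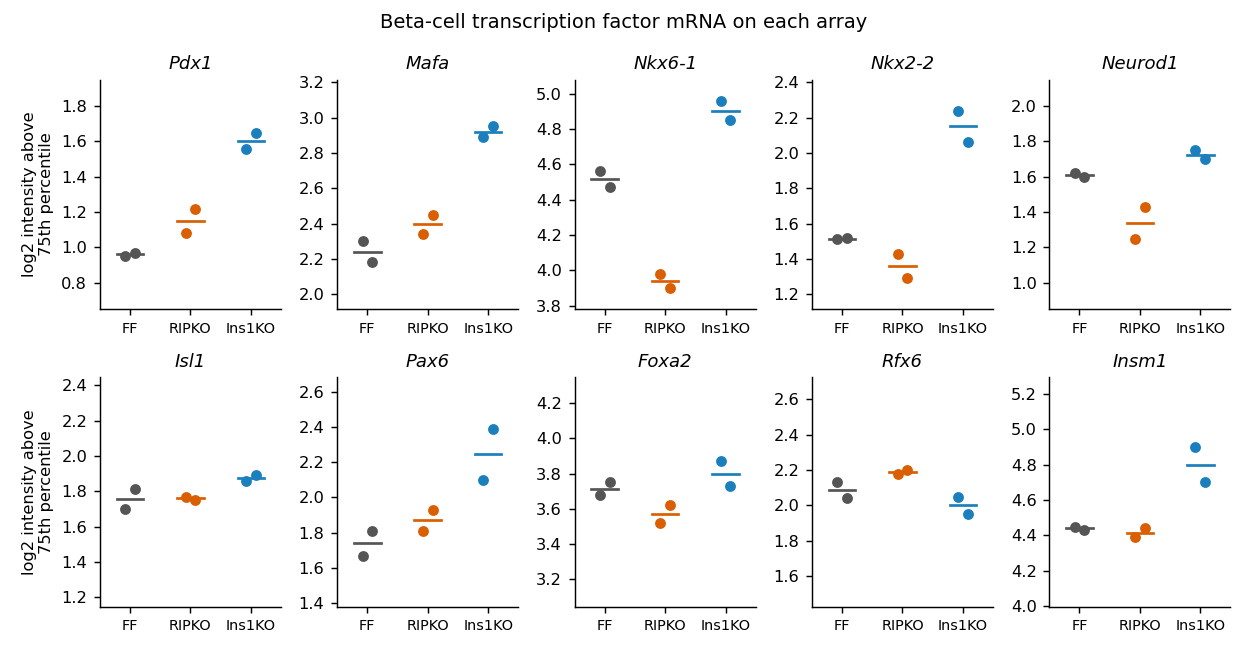
The log2 intensity above the array's 75th percentile of each factor (y axis) on each of the 6 arrays by genotype (x axis; FF, RIPKO and Ins1KO stand for TrspFF, Trsp-RIPKO and Trsp-Ins1KO), with lines at group means and panels of equal height on the log2 scale. Pdx1 lies at 1.56 and 1.65 on the Trsp-Ins1KO arrays and at 0.95 and 0.97 on the TrspFF arrays, an order that turns with scaling to spike-in spots.

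The order of the arrays is seen before any test in the plot of values by array. Against TrspFF, the Trsp-Ins1KO arrays did not overlap and were higher for 8 factors and overlapped for 2, where 76.9% of all genes did not overlap (37.9% higher). For Trsp-RIPKO, 4 factors were higher, 4 were lower and 2 overlapped, where 77.4% of all genes did not overlap (38.1% higher). Between the knockouts, 9 factors were higher and 1, Rfx6, lower in Trsp-Ins1KO with no overlap, where 71.8% of all genes did not overlap (35.4% higher). The 2 arrays of a group differed by at most 0.14 for any factor in TrspFF (Pax6), 0.18 in Trsp-RIPKO (Neurod1) and 0.29 in Trsp-Ins1KO (Pax6).

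The pair that binds the insulin promoter, Pdx1 and Mafa, was highest in Trsp-Ins1KO islets. Pdx1, the homeodomain factor that specifies pancreas and later activates insulin, was at 0.95 and 0.97 in TrspFF, at 1.08 and 1.22 in Trsp-RIPKO and at 1.56 and 1.65 in Trsp-Ins1KO. The 3 groups did not overlap. Its difference of Trsp-Ins1KO from TrspFF was 0.65 (SE 0.0809, adjusted p = 0.00433), a 1.56-fold higher level, and that of Trsp-RIPKO was 0.19 (adjusted p = 0.119; 95% interval -0.02 to 0.40). Trsp-Ins1KO exceeded Trsp-RIPKO by 0.45 (adjusted p = 0.0122), which was lost without Trsp-RIPKO replicate 1 (adjusted p = 0.0538). Mafa, a leucine-zipper factor that marks mature beta cells, was at 2.30 and 2.18, then 2.34 and 2.45, then 2.89 and 2.95 in the same order of groups. Its Trsp-Ins1KO arrays lay well above the other 4, which were close together. Mafa rose by 0.68 against TrspFF (SE 0.0823, adjusted p = 0.00396), or 1.61-fold, and was 0.53 higher than in Trsp-RIPKO (adjusted p = 0.00848). The rises of both genes against TrspFF passed in each fit that left out 1 array (highest adjusted p = 0.0378 and 0.0324). A fit without an array of a compared group leaves that group with 1 array, assumed to vary like the other groups, and the fits without an array of the third group are the same fit. In bulk islet RNA, a change in the share of beta cells and a change in mRNA per beta cell cannot be told apart.

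Nkx6-1 had the largest of the 10 differences between the Cre lines with the 75th percentile, and did not pass there with spike-in scaling. This homeodomain repressor keeps beta cells from taking on features of alpha and delta cells. Its values were 4.56 and 4.47 in TrspFF, at 3.98 and 3.90 in Trsp-RIPKO and at 4.96 and 4.85 in Trsp-Ins1KO. All 3 groups were apart, with TrspFF in the middle. It fell by 0.57 in Trsp-RIPKO (SE 0.0789, adjusted p = 0.00987), a 1.49-fold lower level, and rose by 0.39 in Trsp-Ins1KO (adjusted p = 0.0148). The knockouts differed by 0.96 (SE 0.0789, adjusted p = 0.00199), or 1.95-fold, and this call passed in each fit that left out 1 array (highest adjusted p = 0.0186). The fall in Trsp-RIPKO was lost without TrspFF replicate 1, TrspFF replicate 2 or Trsp-RIPKO replicate 2 (highest adjusted p = 0.0705). The rise in Trsp-Ins1KO was lost without either TrspFF array (highest adjusted p = 0.092), with median scaling and with normexp background correction.

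Nkx2-2, which represses alpha-cell and epsilon-cell programmes in beta cells, gave opposite answers from its 2 probes, which carry different RefSeq accessions. The brighter probe (NM_010919) was at 1.51 and 1.52 in TrspFF, at 1.43 and 1.29 in Trsp-RIPKO and at 2.24 and 2.06 in Trsp-Ins1KO, a rise of 0.64 against TrspFF (SE 0.0948, adjusted p = 0.00647). The other probe (NM_001077632) was at 1.40 and 1.48, then 1.37 and 1.28, then 0.80 and 0.68, a fall of 0.70 (adjusted p over probes = 0.00409). On both probes the TrspFF and Trsp-RIPKO arrays lay close together and the Trsp-Ins1KO arrays stood apart, above on the first and below on the second. Averaged over both probes the difference was -0.03, so no direction can be given for the gene as a whole. The accessions name different transcript records, and which of them each probe reads was not tested.

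**Figure D2:**
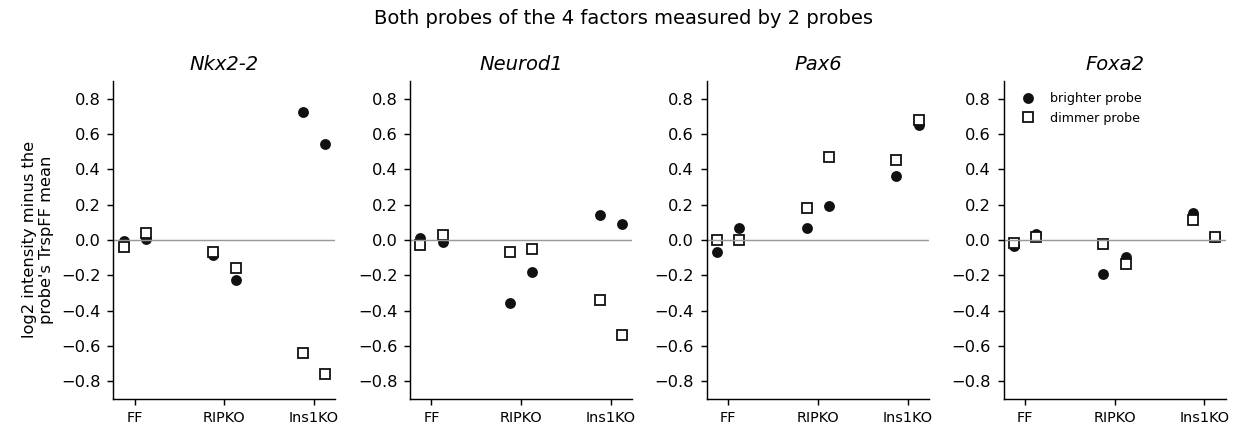
Log2 intensity minus the same probe's TrspFF mean (y axis) for each array by genotype (x axis) for Nkx2-2, Neurod1, Pax6 and Foxa2, each measured by 2 probes (filled circles, brighter; open squares, dimmer). In Trsp-Ins1KO the Nkx2-2 and Neurod1 probes part, with Nkx2-2 differences of 0.64 and -0.70, while both Pax6 probes lie above TrspFF. Every Trsp-Ins1KO point would lie lower with spike-in scaling.

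Neurod1, the E-box activator of the insulin gene, also differed between its probes, as the plot of both probes shows. The brighter probe was at 1.62 and 1.60 in TrspFF, at 1.25 and 1.43 in Trsp-RIPKO and at 1.75 and 1.70 in Trsp-Ins1KO. It lay lowest in Trsp-RIPKO, at -0.26 against TrspFF (SE 0.0854, adjusted p = 0.0635), and the knockouts differed by 0.38 (adjusted p = 0.0235). Among the fits that left out 1 array, that difference passed only in the one without Trsp-RIPKO replicate 2 (highest adjusted p = 0.0818). The dimmer probe was at 0.90 and 0.96, 0.86 and 0.88, and 0.59 and 0.39. It was lowest in Trsp-Ins1KO, at -0.44 against TrspFF (SE 0.0928, adjusted p over probes = 0.0175). Both probes carry the same accession, so the array gives no single direction for Neurod1 in Trsp-Ins1KO.

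Pax6, the paired-domain factor of all islet endocrine cells, was the next to rise in Trsp-Ins1KO. It was at 1.67 and 1.81 in TrspFF, at 1.81 and 1.93 in Trsp-RIPKO and at 2.10 and 2.39 in Trsp-Ins1KO. The Trsp-Ins1KO arrays were the highest and also the farthest apart. The rise against TrspFF was 0.51 (SE 0.124, adjusted p = 0.0249), and the second probe gave 0.56 (SE 0.135, adjusted p over probes = 0.0244). It was lost without TrspFF replicate 1, TrspFF replicate 2 or Trsp-Ins1KO replicate 2 (highest adjusted p = 0.123). Against Trsp-RIPKO the Pax6 difference was 0.38 (adjusted p = 0.0653), and it passed with normexp, with median scaling, with the filter on all 6 arrays, with a trended robust fit, with the replicate block and without Trsp-Ins1KO replicate 1. Insm1, the zinc-finger factor of endocrine differentiation, was at 4.45 and 4.43 in TrspFF, at 4.39 and 4.44 in Trsp-RIPKO and at 4.90 and 4.70 in Trsp-Ins1KO. TrspFF and Trsp-RIPKO overlapped, and Trsp-Ins1KO lay above both. The rise of 0.36 against TrspFF (SE 0.0901, adjusted p = 0.0279) and the difference of 0.38 from Trsp-RIPKO (adjusted p = 0.0262) passed in only 1 of the fits that left out 1 array, the one without Trsp-Ins1KO replicate 2 (highest adjusted p = 0.124 and 0.106). The rise was also lost with normexp, with median scaling, without the filter on dim probes and in a fit of the 4 arrays alone.

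Isl1, Foxa2 and Rfx6 did not pass in any of the 3 comparisons. The LIM-homeodomain factor Isl1 had 10 spots on each array, whose SD was 0.0329 to 0.0917, and was at 1.70 and 1.81 in TrspFF, at 1.77 and 1.75 in Trsp-RIPKO and at 1.86 and 1.89 in Trsp-Ins1KO. Its difference from TrspFF was 0.00 in Trsp-RIPKO (95% interval -0.18 to 0.18) and 0.12 in Trsp-Ins1KO (-0.06 to 0.30, adjusted p = 0.208). Foxa2, a forkhead pioneer factor, was at 3.68 and 3.75, 3.52 and 3.62, and 3.87 and 3.73. Its differences were -0.15 (-0.36 to 0.07) in Trsp-RIPKO and 0.08 (-0.13 to 0.30) in Trsp-Ins1KO, and its second probe gave -0.08 and 0.07. Rfx6, the winged-helix factor of islet development, was at 2.13 and 2.04, 2.18 and 2.20, and 2.05 and 1.95. By each gene's brightest probe, it was the only factor below TrspFF in Trsp-Ins1KO, at -0.08 (-0.28 to 0.11, adjusted p = 0.404). In Trsp-RIPKO it was above TrspFF, at 0.10 (-0.09 to 0.30). The second probes of Nkx2-2 and Neurod1 were also below TrspFF in Trsp-Ins1KO, at -0.70 and -0.44. Between the knockouts Rfx6 was at -0.19 (adjusted p = 0.106), and it passed as lower in Trsp-Ins1KO with normexp (-0.37), with quantile normalization (-0.26) and with a trended robust fit (-0.19). Foxa2 passed as higher there with median scaling (0.40) and a trended robust fit (0.23), and Isl1 with median scaling (0.29).

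**Figure D3:**
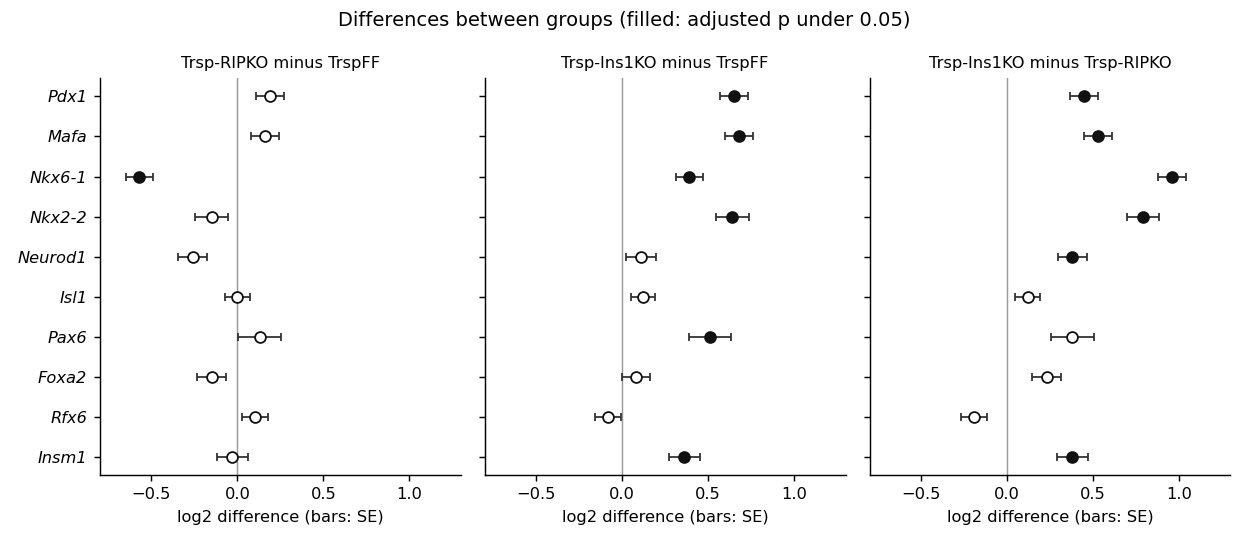
Log2 differences (x axis) of the 10 factors (y axis) in the 3 comparisons, with bars of 1 SE and filled points for adjusted p under 0.05. The middle panel has 6 filled points, all above 0, and the left panel has 1, Nkx6-1 at -0.57; with spike-in scaling all 10 points of the middle panel lie below 0.

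Directions depend on what the arrays are scaled to. The 75th percentile of intensity was 203.0 to 247.2 for the TrspFF and Trsp-RIPKO arrays, against 121.9 and 110.7 for Trsp-Ins1KO, while spike-in spots lay 2.20 to 2.59 and 3.62 to 3.70 above it. Scaling to the 230 spike-in spots, an alternative added after seeing the data, moved the median of all genes to -1.37 in Trsp-Ins1KO against TrspFF. All 10 factors then fell, with a median of -0.99, where 95.1% of all genes fell. This scaling moves every gene of an array by the same amount, so the distance of 0.39 between the medians of the factors and of all genes is fixed by construction. Normexp background correction started from the median spot signal and added an offset of 50 before the log. In Trsp-Ins1KO against TrspFF it gave a median of 0.07 for the factors, below the 0.16 of all genes. The part of the offset in this was not tested. Pdx1 (0.41), Mafa (0.45), Nkx2-2 and Pax6 still rose with normexp, and Rfx6 fell. Median scaling lowered the Trsp-RIPKO differences by 0.24 over all genes, and Nkx6-1, Foxa2, Neurod1 and Nkx2-2 then fell. It also turned the split of all genes in that comparison to 2013 higher and 7264 lower, from 3592 and 3329.

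**Figure D4:**
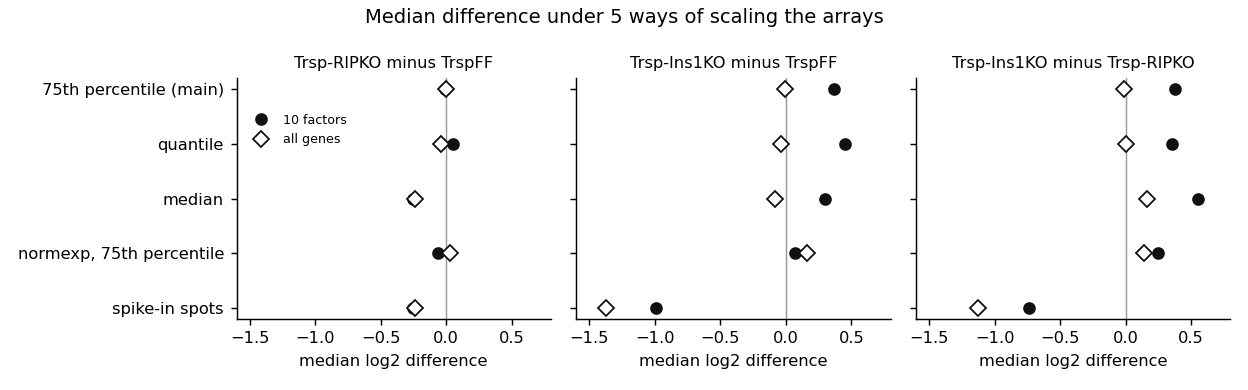
Median log2 difference (x axis) of the 10 factors (filled circles) and of all genes (open diamonds) under 5 ways of scaling the arrays (y axis). In Trsp-Ins1KO against TrspFF the factors' median was 0.37 with the 75th percentile and -0.99 with spike-in spots, and the median of all genes moved with it.

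A few genes outside the lists followed the same pattern over the 6 arrays. By Euclidean distance of array values centred on their mean, among 13181 named genes, Gramd3 (0.0577), Aym1 (0.0586) and Crebl2 (0.0863) were nearest to Pdx1. Mafa was nearest to Rara (0.103), Crebl2 (0.113) and Rnf126 (0.117). The brighter Nkx2-2 probe was nearest to Prkd2 (0.0956), Plppr2 (0.118) and Pld3 (0.118).

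Partners and inhibitors of the factors were next examined: dimer partners, co-activators, co-repressors and Id proteins. Of 36 tested, 12 rose and 4 fell in Trsp-Ins1KO against TrspFF, with a median difference of 0.21. These 16 are 44.4% of the list, near the 45.9% of all genes that passed. Counts without 1 array are given below for this list and the next ones. In each of those fits fewer of all genes passed too, so such drops are not particular to a list. The largest rises were those of Id1 (0.71, adjusted p = 0.0103), which blocks helix-loop-helix factors, the co-repressor Tle1 (0.69, adjusted p = 0.00305) and Tcf3 (0.68, adjusted p = 0.00322), the E-protein partner of Neurod1. The largest falls were those of Pknox1 (-0.55), a homeodomain cofactor, Pcbd1 (-0.52), a dimerization cofactor, and Id2 (-0.42). Other Tle1 probes gave 0.58 and 0.00, and a second Tcf3 probe gave 1.31. Pcbd1 and Id2 were lost without either TrspFF array (highest adjusted p = 0.0572 and 0.0991), and the count of 16 became 5 without TrspFF replicate 1 and 9 without TrspFF replicate 2. In Trsp-RIPKO 8 rose and 3 fell, with a median of 0.06, or 30.6% of the list against 36.4% of all genes. They included the acetyltransferase Ep300 (0.55, adjusted p = 0.0125), the E protein Tcf12 (0.49) and Id1 (0.47) among the rises, and Pcbd1 (-0.37), Hdac1 (-0.35) and Pknox1 (-0.28) among the falls. All 6 were lost without either TrspFF array and without Trsp-RIPKO replicate 2 (highest adjusted p = 0.0803 to 0.194). A second Tcf12 probe gave -0.30, and other Hdac1 probes gave -0.36 and 0.00. The count of 11 partners in Trsp-RIPKO fell to 0 without TrspFF replicate 1, TrspFF replicate 2 or Trsp-RIPKO replicate 2, to 2 without Trsp-RIPKO replicate 1, and to 1 with no filter on dim probes. With median scaling it split into 1 rise and 11 falls. Between the knockouts 10 were higher and 3 lower in Trsp-Ins1KO (36.1% of the list against 38.7% of all genes). Id3 (0.75), Tle3 (0.60) and Pbx2 (0.59), a partner of Pdx1, were highest among those that passed, and Ssbp2 (-0.35), Lmo4 (-0.29) and Pknox1 (-0.27) were the 3 that passed as lower. Id3, Lmo4 and Pknox1 passed in at most 1 of the fits that left out 1 array (highest adjusted p = 0.156, 0.157 and 0.145), and Ssbp2 was lost without Trsp-RIPKO replicate 1 (0.0663). Other probes gave 0.03 for Lmo4, -0.17 and -0.02 for Ssbp2 and -1.43 for Pknox1. The count of 13 became 7 and 5 without Trsp-RIPKO replicate 1 or 2, and 8 without either TrspFF array.

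Other transcription factors of islet and pancreas moved in both directions. Of 25 tested, 7 rose and 4 fell in Trsp-Ins1KO against TrspFF, with a median of -0.02, or 44% of the list against 45.9% of all genes. The rises were led by Tcf7l2 (1.17, adjusted p = 0.00488), the Wnt effector, Esrrg (0.71), a nuclear receptor of mature beta cells, and Hnf4a (0.43). Other probes were smaller, at 0.45 and 0.41 for Tcf7l2 and 0.24 for Esrrg. Among the falls were Zbtb20 (-0.64) and Hhex (-0.50), the delta-cell factor. Esrrg was lost without either TrspFF array (highest adjusted p = 0.0929), and Hnf4a without TrspFF replicate 1 (0.0627). The count of 11 became 4 and 5 without TrspFF replicate 1 and 2. In Trsp-RIPKO 5 rose and 1 fell, with a median of 0.11, or 24% of the list against 36.4% of all genes. Neurog3, the endocrine progenitor factor, rose by 0.72 (adjusted p = 0.0105), with Esrrg at 0.62 and Lmx1b at 0.37, and Zbtb20, a repressor, fell by 0.52. All 4 were lost without either TrspFF array and without Trsp-RIPKO replicate 2 (highest adjusted p = 0.0702 to 0.147), and a second Esrrg probe gave -0.09. The count of 6 became 0 without TrspFF replicate 1, TrspFF replicate 2 or Trsp-RIPKO replicate 2, and with median scaling it split into 1 rise and 6 falls. Between the knockouts 3 were higher and 6 lower in Trsp-Ins1KO (36% of the list against 38.7% of all genes). Tcf7l2 (0.71) and Foxo1 (0.48) were among the higher, and Hhex (-0.74) was lower in each fit that left out 1 array. Tcf7l2 and Foxo1 were lost without either Trsp-RIPKO array (highest adjusted p = 0.0982 and 0.0722). Other Tcf7l2 probes gave 0.15 and -1.07, and a second Foxo1 probe gave 0.22. The count of 9 became 3 and 4 without Trsp-RIPKO replicate 1 or 2, and it split into 10 higher and 5 lower with normexp. Neurod2 was at least 1.81-fold lower (adjusted p = 0.0111), since it was not well above background on any Trsp-Ins1KO array. Its call was lost without either Trsp-RIPKO array. With normexp its difference was 0.09, so the bound depends on the background correction.

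**Figure D5:**
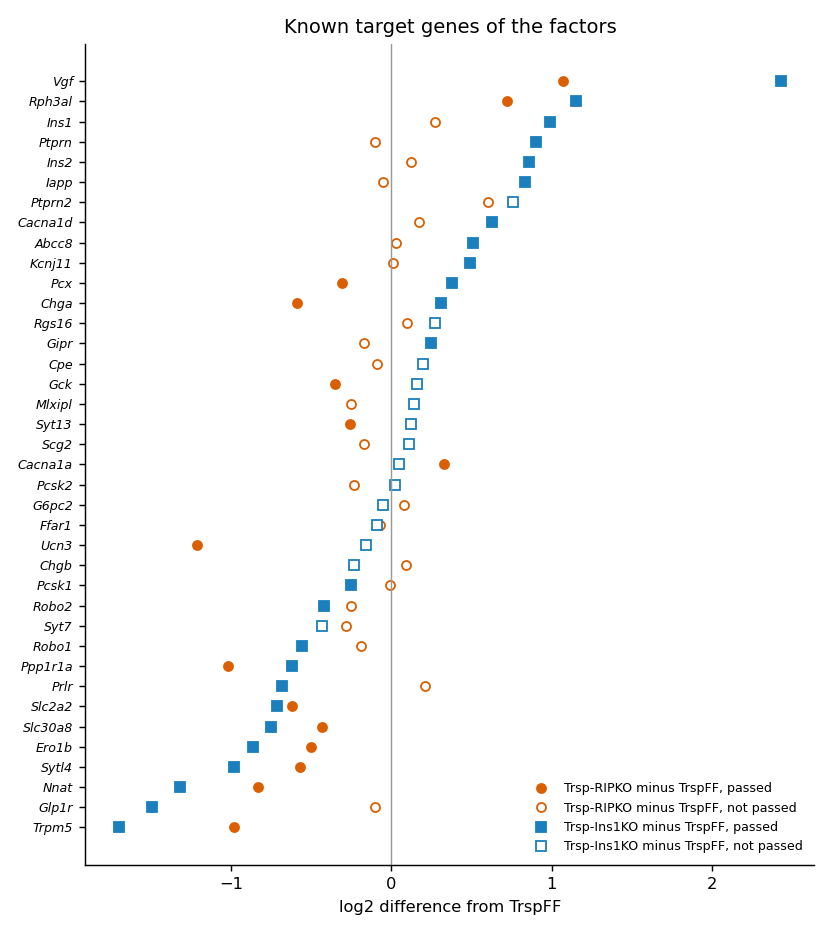
Log2 difference from TrspFF (x axis) of 38 known target genes (y axis, ordered by the Trsp-Ins1KO difference) in Trsp-RIPKO (circles) and Trsp-Ins1KO (squares), filled where the adjusted p was under 0.05. Vgf is highest in both, at 1.07 and 2.43, and Trpm5 is lowest in Trsp-Ins1KO at -1.70; with spike-in scaling the median of all genes in Trsp-Ins1KO is -1.37 in place of -0.01.

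Target genes of the factors did not move as 1 group. Of 38 tested, 12 rose and 12 fell in Trsp-Ins1KO against TrspFF, with a median of 0.08, and in Trsp-RIPKO 3 rose and 12 fell, with a median of -0.13. These are 63.2% and 39.5% of the list, against 45.9% and 36.4% of all genes. Leaving out 1 TrspFF or Trsp-RIPKO array brought the 15 Trsp-RIPKO calls to between 5 and 9, and the 24 Trsp-Ins1KO calls were 14 without TrspFF replicate 1. Vgf, a granule peptide precursor, was at 1.20 and 1.22 in TrspFF, at 2.28 and 2.29 in Trsp-RIPKO and at 3.70 and 3.57 in Trsp-Ins1KO, so the 3 groups stood far apart. It rose by 1.07 (adjusted p = 0.00327) and 2.43 (adjusted p = 0.000397), and the knockouts differed by 1.35. Ins1 was at 10.24 and 10.48, then 10.55 and 10.70, then 11.27 and 11.41, and rose by 0.99 in Trsp-Ins1KO (adjusted p = 0.00379), a call lost with quantile normalization. The labels do not say how the Cre of these mice relates to the Ins1 locus, and its part in this value was not tested. Rph3al, a secretory vesicle protein, rose by 0.72 and 1.15, of which the first was lost when any 1 of the TrspFF and Trsp-RIPKO arrays was left out (highest adjusted p = 0.184) and the second was lost without TrspFF replicate 1 (0.0512). The taste and islet cation channel Trpm5 fell by 0.98 in Trsp-RIPKO and 1.70 in Trsp-Ins1KO.

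Ucn3, a peptide of mature beta cells, was lowest in Trsp-RIPKO islets. It was at 4.18 and 4.09 in TrspFF, at 2.98 and 2.87 in Trsp-RIPKO and at 4.12 and 3.85 in Trsp-Ins1KO, so the Trsp-RIPKO arrays stood alone at the bottom. It fell by 1.21 in Trsp-RIPKO (SE 0.114, adjusted p = 0.00527), or 2.32-fold, and was 1.06 higher in Trsp-Ins1KO than there (adjusted p = 0.00345). Spike-in scaling moved the median of all genes between the knockouts from -0.01 to -1.13, so the order of Ucn3 in the knockouts depends on the scaling. Ppp1r1a, a phosphatase inhibitor, fell by 1.02 in Trsp-RIPKO. The incretin receptor gene Glp1r fell by 1.49 in Trsp-Ins1KO (adjusted p = 0.00239), and Nnat, which aids signal peptide processing of insulin, fell by 1.32. Both passed in each fit that left out 1 array, and second probes gave -0.69 and -1.71. Cacna1a, a calcium channel subunit, rose by 0.33 in Trsp-RIPKO, which was lost when any 1 of the TrspFF and Trsp-RIPKO arrays was left out (highest adjusted p = 0.165). Between the knockouts 19 targets were higher and 10 lower in Trsp-Ins1KO, with a median of 0.26, or 76.3% of the list against 38.7% of all genes. The 29 calls were 13 and 15 without Trsp-RIPKO replicate 1 or 2. Ptprn, a granule membrane protein, was 1.00 higher, while Glp1r (-1.39), the prolactin receptor gene Prlr (-0.89) and Trpm5 (-0.72) were lower. Second probes gave -0.48 for Glp1r and -0.49 for Prlr, and neither passed.

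Markers of several other cell types differed between the genotypes, and their part in the results for the 10 factors was not tested. Beside the counts below, 36.4% of all genes passed in Trsp-RIPKO (18.9% rose and 17.5% fell). In Trsp-Ins1KO 45.9% passed (23% rose and 23% fell). Acinar markers rose for 17 of 20 genes in Trsp-RIPKO, and in Trsp-Ins1KO 14 of 20 rose and 1 fell. Their summed scaled intensity was 16.3 to 16.7 in TrspFF, 25.3 to 27.7 in Trsp-RIPKO and 22.8 to 24.5 in Trsp-Ins1KO. Fibroblast and stellate markers rose for 8 of 10 genes in Trsp-RIPKO, and in Trsp-Ins1KO 8 of 10 fell and 1 rose (sums of 16.4 to 16.7, 23.7 to 23.8 and 7.57 to 7.58). Endothelial markers rose for 5 and 8 of 12, and 1 fell in Trsp-Ins1KO (sums of 84.6 to 85.1, 95.8 to 96.3 and 140 to 141). Intestinal markers rose for 7 and 4 of 9, from sums of 8.06 to 8.31 in TrspFF, where 4 of the 9 were not above background, to 14.0 and 9.94 to 10.4. Markers of the other hormone cells (alpha, delta, epsilon and PP) fell for 4 and 7 of 14 and rose for 2 and 1, with sums of 1680 to 1690, 1170 to 1250 and 1140 to 1230. Macrophage, T-cell and B-cell markers rose for 4 of 10 in each knockout (sums of 149 to 151, 205 to 216 and 266 to 286). These are 40% of the list, near the shares of all genes that passed. Enteroendocrine markers rose for 3 and fell for 4 of 9 in Trsp-RIPKO and rose for 4 and fell for 3 in Trsp-Ins1KO, with sums of 831 to 836, 511 to 523 and 931 to 1030, to which Chga and Pyy, also made by islet cells, gave the most. Duct markers rose for 2 and 1 and fell for 1 and 1 of 7 (sums of 5 to 5.79 over the 6 arrays). These are 42.9% and 28.6% of the list, the first near and the second below the share of all genes. The sum over the 10 factors themselves was 80.7 to 81.8, 71.9 to 73.6 and 99.1 to 106.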

How the data were processed

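Per the labels, islet RNA was amplified and Cy3-labelled with a Low Input Quick Amp kit for 1-colour Agilent arrays. Feature Extraction 10.7.3.1 gave the authors the deposited processed intensity, which is background-subtracted, per the file headers. A second deposited table holds the authors' log2 values. Each of its columns matched 1 scanner file scaled to the 75th percentile and centred on the probe's median (r = 1 over 19486 probes), with TrspFF and Trsp-Ins1KO exchanged. It was used only as an alternative, and which of its direction and the scanner files' labels is right stays unknown. Its column medians were 0.087, 0.141, 0.011, -0.029, -0.079 and -0.045.

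Here log2 intensity minus the array's 75th percentile (over 39429 probes) was used. Probes needed the scanner's flag for signal well above background on both arrays of some group (23199 probes, 19021 genes), and a gene took its brightest entering probe. Names come from RefSeq accessions through the GRCm38.p6 gene table (66.1% of probes), for names only. limma 3.58.1 in R 4.3.3 fitted a mean per group over all 6 arrays, with two-sided tests, Benjamini-Hochberg adjustment over all genes and a threshold of 0.05. The fit had 5.1 total degrees of freedom, and the number of arrays limits precision. A difference that did not pass is not shown to be absent. In simulated data with 200 of 19021 genes changed, 0% of log2 changes of 0.4 were recovered. Many more genes passed in the real data, which eases the adjusted threshold, so this does not give the share missed here. The 14 probes of the factors were well above background on all 6 arrays, and 0 spots were saturated.

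The 10 factors and the gene lists were chosen with earlier results of these data known. Named genes are all 10 factors, the 3 largest rises and falls that passed per list and comparison, and the 3 genes nearest to each of the 3 factors farthest from TrspFF; a few genes that this rule names are not reported here, though list counts include them. The labels do not say whether replicate numbers pair arrays. Deviations of same-numbered arrays correlated at 0.06 to 0.09, which cannot settle whether they were paired. Alternatives covered background correction, scaling, the filter, probe choice, the fit, the replicate block, the deposited table and leaving out 1 array. Figures were drawn with matplotlib 3.10.9.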

Additional observations from a re-analysis of the deposited data

Results flagged for a closer look

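The effects of the Cre lines against the shared TrspFF arrays differed for 6 factors, by limma's test of the difference between the knockouts (adjusted p under 0.05 over all genes), where 38.7% of all genes passed. Trsp-Ins1KO minus Trsp-RIPKO was 0.96 for Nkx6-1, 0.79 for the brighter Nkx2-2 probe, 0.53 for Mafa, 0.45 for Pdx1, 0.38 for Neurod1 and 0.38 for Insm1, all on the log2 scale and all with both Trsp-Ins1KO arrays above both Trsp-RIPKO arrays. With spike-in scaling the calls between the knockouts were 8 falls, where 95.4% of all genes fell, and Nkx6-1 and Nkx2-2 were not among them. The 2 groups were on different slides, so slide and Cre line cannot be told apart for these differences. The second probes of Nkx2-2 and Neurod1 gave -0.59 and -0.38 for the same difference, which passed, and the means over both probes gave 0.10 and 0.00.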

How the results depend on the processing

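Factors that passed numbered 1 (Trsp-RIPKO against TrspFF), 6 (Trsp-Ins1KO against TrspFF) and 6 (Trsp-Ins1KO against Trsp-RIPKO). The first count was 3 with normexp, 4 with median scaling, 2 with the filter on all 6 arrays, 2 with a trended robust fit and 2 with spike-in scaling, all falls. Leaving out 1 array gave 0 to 1, 3 to 5 and 3 to 5, where fewer samples were fitted. With the replicate block the counts were 1, 6 and 7, and this block changed 1 call among the factors, adding Pax6 between the knockouts (0.38, adjusted p = 0.0310), and lost Pknox1 and Cacna1a in Trsp-RIPKO and Lmo4 and Pknox1 between the knockouts. Spike-in scaling gave 10 and 8 falls in the other comparisons. With a gene's probes averaged, the 3 counts were 1, 5 and 4. The factors' median was then 0.24 in Trsp-Ins1KO against TrspFF and 0.25 between the knockouts. This averaging turned Nkx2-2 to -0.03 (Trsp-Ins1KO against TrspFF) and Tcf7l2 to -0.07 (between the knockouts). Normexp turned Neurod2 to 0.09 between the knockouts, and the cause of these turns was not tested.

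Under the deposited table's own column names the counts were 6 falls, 6 falls and 1 rise, by the exchange of the columns named TrspFF and Trsp-Ins1KO. Trsp-RIPKO against TrspFF then gave Pdx1 -0.45, Mafa -0.53, Id1 -0.24, Pcbd1 0.15, Pknox1 0.28, Esrrg -0.09, Zbtb20 0.12, Vgf -1.35, Rph3al -0.43 and Trpm5 0.72. Trsp-Ins1KO against TrspFF gave Pdx1 -0.65, Mafa -0.68, Nkx6-1 -0.39, Nkx2-2 -0.64, Pax6 -0.51, Insm1 -0.36, Id1 -0.71, Tle1 -0.69, Tcf3 -0.68, Pknox1 0.56, Pcbd1 0.52, Id2 0.42, Tcf7l2 -1.17, Esrrg -0.71, Hnf4a -0.43, Zbtb20 0.64, Hhex 0.50, Vgf -2.43, Rph3al -1.15, Ins1 -0.98, Trpm5 1.70, Glp1r 1.49 and Nnat 1.32. Between the knockouts it gave Pdx1 -0.19, Mafa -0.16, Pknox1 0.28, Tcf7l2 -0.46, Vgf -1.07, Glp1r 0.10 and Trpm5 0.98. With columns taken by the scanner file they match, the same table kept the direction and call of all 30 factor results.

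The balance of rises and falls turned in some list counts. For partners it was 12 calls (1 rise) with median scaling, 13 (3 rises) under the table's names and 6 (0 rises) with spike-in scaling in Trsp-RIPKO, 16 (4 rises) and 36 (0 rises) under the last 2 in Trsp-Ins1KO, and 11 (3 rises) and 35 (0 rises) between the knockouts. For other transcription factors it was 7 (1 rise) with median and 7 (2 rises) with spike-in scaling in Trsp-RIPKO. In Trsp-Ins1KO it was 9 (4 rises) with median scaling, 11 (4 rises) under the table's names, 24 (0 rises) with spike-in scaling, and 4 to 9 without TrspFF replicate 1, TrspFF replicate 2 or Trsp-Ins1KO replicate 2. Between the knockouts it was 15 (10 rises) with normexp and 11 (6 rises) with median scaling. Of the targets, 33 fell between the knockouts with spike-in scaling.

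All genes that passed numbered 6921, 8737 and 7365, against 9533, 13974 and 12065 with normexp (9202 and 8293 rises in the last 2), and 2692, 13943 and 11645 without the filter. Without TrspFF replicate 1 the first was 862. Spike-in scaling left 137 rises among 18221 calls in Trsp-Ins1KO, and median scaling 5702 among 8053 between the knockouts. The factors' probes were all above background, while 2 arrays a group limited precision. The part of the lower signal on the Trsp-Ins1KO arrays in the normexp results was not tested.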
